A study of Gallus gallus with 12 samples.

Results

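Matricellular proteins are secreted into the extracellular matrix, where they bind integrins, proteoglycans, growth factors and structural fibres without forming the fibres themselves. The 10 genes described here encode 3 members of the CCN family (CYR61, CTGF and NOV, also named CCN1, CCN2 and CCN3), matrix Gla protein (MGP), osteopontin (SPP1), osteonectin (SPARC), the thrombospondins THBS1 and THBS2, tenascin C (TNC) and periostin (POSTN). They were chosen by name, with earlier results of these data known. Every probe set that the platform annotation gives to them was taken, whatever its signal. The array names 13009 genes by a probe set with a single symbol, and the 10 genes held 20 of its 38439 probe sets apart from controls. With 46.2% of all probe sets bright enough to be tested, 14 of the 20, from 9 genes, were tested, and the 4 TNC probe sets, the second NOV probe set and the second POSTN probe set were not. CCN proteins act on vessel growth, adhesion and fibrosis, thrombospondins are known as brakes on angiogenesis, and MGP, osteopontin and osteonectin bind mineral or collagen. The chorioallantoic membrane (CAM) is the highly vascularized membrane through which the chick embryo exchanges gas and takes up calcium from the shell.

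The study followed CAM development with Affymetrix chicken GeneChips at embryonic days 5 (E5), 7 (E7), 10 (E10) and 14 (E14), to ask which genes change as its vessels grow and mature. Each stage had 3 arrays, and each array held total RNA of a whole CAM from a separate embryo. At E5 the tissue is the allantoic vesicle, which the study also calls CAM, so comparisons with E5 set this vesicle beside later membranes. All groups shared incubation at 37.8ºC with 75% humidity, and the labels name no treatment or genetic change in any of them. Values are signals from GCOS, the scanner software, scaled by the authors to the same trimmed mean on every array, and levels of different probe sets cannot be set against each other. Since whole membranes were measured, more cells of a type and more RNA per cell cannot be told apart.

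The array of E7 replicate 3 stood apart. Its median signal was 48.6 against 24.4 to 33.6 on the other 11 arrays, its mean correlation with the other E7 arrays was 0.829 against 0.876 to 0.943, and its ratio of 3′ to 5′ actin signal was 2.76. This ratio, a sign of RNA integrity, was 1.19 to 1.66 on the other E5, E7 and E10 arrays and 2.21 to 3.43 at E14. The same ratio for GAPDH was 1.19 to 1.3 at E14 and 0.921 to 1.1 on all earlier arrays. In comparisons with E14, stage and RNA integrity therefore cannot be told apart. Signal of the W-linked, female-specific gene HINTW was high on 7 arrays (3680 to 7630), among them all E10 arrays and E14 replicates 1 and 3, and 110 or lower on the other 5. The numbers of member probe sets called were the same with HINTW signal as a covariate. Among endothelial markers, 9 of 15 measured genes rose from E5 to E14, where 14.8% of all tested probe sets rose, and none fell, and their summed signal was 3246 to 4755 at E5 and 7785 to 10530 at E14. A rise or fall below is a limma call at an adjusted p under 0.05 and a change of more than 2-fold.

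CYR61, a secreted integrin and heparan sulphate ligand, was highest at E10 and fell 2.11-fold to E14. CTGF, a regulator of connective tissue growth, rose 3.89-fold from E5 to E14 without a call in any single period. NOV, a CCN protein that also binds Notch, rose in both early periods and was 16.5-fold higher at E14 than at E5.

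CYR61 signals (probe set Gga.2200.1.S1_at) were 332.5, 281.5 and 258 at E5, 363, 312 and 325 at E7, 545, 574 and 478 at E10, and 176, 310 and 291 at E14. All 3 E10 arrays were above all 9 other arrays, whereas the E5 arrays overlapped with both E7 and E14, and E14 (highest 310) ended just under E7 (lowest 312). From E10 to E14 the mean fell from 532.5 ± 49.1 to 259 ± 72.5 (SD, n = 3 each), a log2 change of -1.08 (SE 0.22, limma adjusted p = 0.0187). The increase from E7 to E10 was 0.67 on the log2 scale (SE 0.22) and was not called (limma adjusted p = 0.102), although those stages did not overlap. E14 differed from E5 by -0.20 (95% interval -0.68 to 0.28), also not called (limma adjusted p = 0.498). The fall after E10 was no longer called without E10 replicate 1 (limma adjusted p = 0.0733), E10 replicate 2 (0.0839) or E14 replicate 1 (-0.82, adjusted p = 0.0526), or when only the 6 arrays of both stages were fitted (0.0527).

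CTGF signals (Gga.4051.1.S1_at) were 534, 393 and 394 at E5 and 779, 706 and 610 at E7. They were 1090, 903 and 1108 at E10 and 2053, 1156 and 2051 at E14. No stage overlapped with the next, and the widest spread was at E14, where replicate 2 lay close to the highest E10 array. Each period gave a similar total increase, of 0.67 from E5 to E7, 0.57 from E7 to E10 and 0.72 from E10 to E14 on the log2 scale. The periods differ in length, so these are not rates per day. None of these increases was called (limma adjusted p = 0.172, 0.178 and 0.105). Over the whole course CTGF rose by 1.96 on the log2 scale (SE 0.23, limma adjusted p = 2.43e-05), from 440.3 ± 81.0 to 1753 ± 517 (SD, n = 3). This call held in all 23 alternative fits.

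NOV signals (Gga.2587.1.S1_at) were 55.0, 31.5 and 40.0 at E5, 206, 240 and 163 at E7, 913, 334 and 857 at E10, and 891, 637 and 549 at E14. E5 lay below E7 and E7 below E10 with no overlap, whereas E10 and E14 overlapped, and E10 replicate 2 was far below the other E10 arrays. NOV rose 4.88-fold from E5 to E7 (log2 change 2.29, SE 0.35, limma adjusted p = 0.00449) and 3.19-fold from E7 to E10 (1.67, SE 0.35, adjusted p = 0.015). The E10 to E14 difference was 0.09 and was not called (limma adjusted p = 0.919). The log2 change over all stages, E5 to E14, was 4.05 (SE 0.35, limma adjusted p = 2.03e-06). At E5 the lowest signal (31.5) was under the limit for testing (34.7). The size of both rises from E5 therefore depends on a level close to background. The E7 to E10 rise was not called without E10 replicate 1 (log2 change 1.41, limma adjusted p = 0.0829) or without E10 replicate 3 (1.46, adjusted p = 0.084). The second NOV probe set (GgaAffx.120.1.S1_at) gave 0.409 to 14.4 over the 12 arrays and was not tested.

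**Figure D1:**
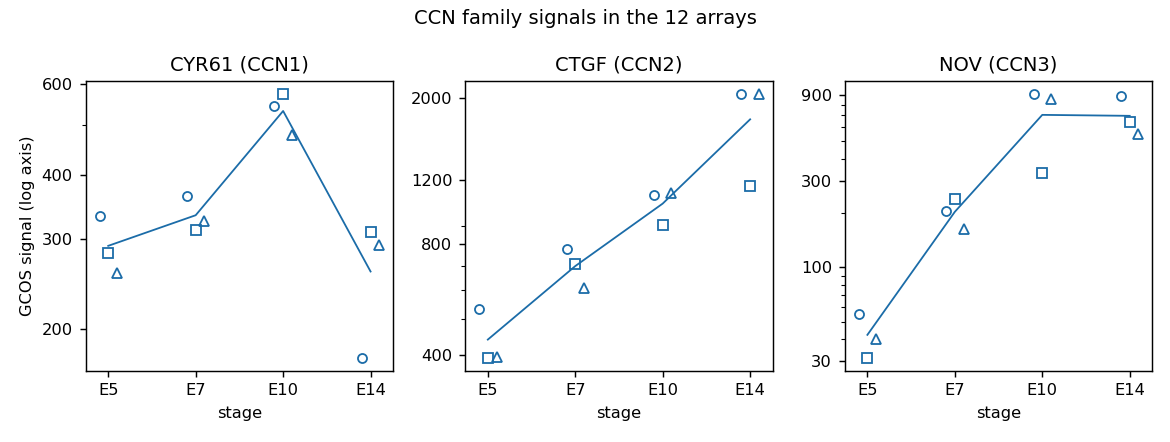
GCOS signal (log axis) of CYR61, CTGF and NOV by stage, with a circle, square and triangle for replicates 1, 2 and 3 and a line through the stage means. CYR61 was highest on the 3 E10 arrays (478 to 574), CTGF was higher at each later stage, and NOV went from 31.5 to 55.0 at E5 to 549 to 891 at E14.

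CYR61 and CTGF are both widely used as readouts of YAP and TEAD activity, and they were compared within each array. The log2 CTGF signal minus the log2 CYR61 signal was 0.68, 0.48 and 0.61 on the E5 arrays and 1.10, 1.18 and 0.91 on the E7 arrays. It was 1.00, 0.65 and 1.21 on the E10 arrays and 3.55, 1.90 and 2.82 on the E14 arrays. The E14 arrays were all above the 9 earlier arrays, and E7 and E10 overlapped. The mean difference went from 0.955 to 2.75 between E10 and E14, a shift of 1.80 with an exact two-sided permutation p = 0.1, which is the smallest that 3 against 3 arrays can give. The shift of 0.47 between E5 and E7, where the stages did not overlap either, had the same exact permutation p = 0.1, and that of -0.107 between E7 and E10 had p = 0.7. Over the 12 arrays, which share their stages, the correlation between CYR61 and CTGF was -0.0561, whereas that between CTGF and NOV was 0.894. These are descriptions of 12 points that also share array and RNA sample.

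**Figure D2:**
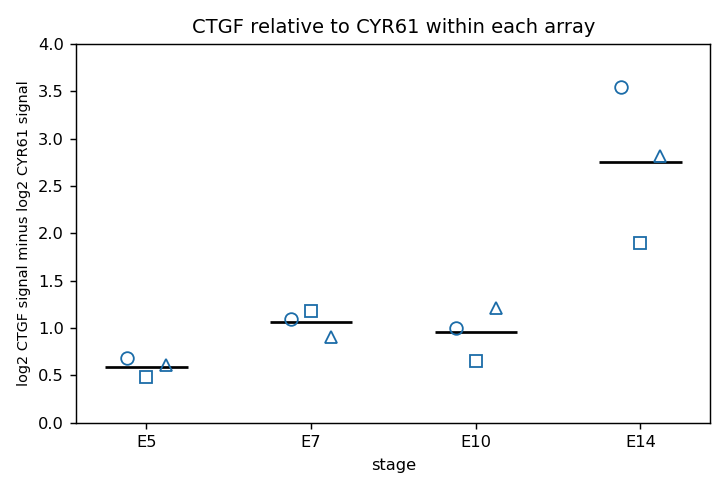
Log2 CTGF signal minus log2 CYR61 signal within each array by stage, with a circle, square and triangle for replicates 1, 2 and 3 and a bar for the mean. The E14 arrays (1.90 to 3.55) lie above the E5, E7 and E10 arrays (0.48 to 1.21), and only the shift between arrays is readable, since the levels of different probe sets cannot be compared.

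MGP, an inhibitor of calcification in vessel walls and cartilage that also binds bone morphogenetic proteins, had the largest early change of the 14 tested probe sets. Its signals (Gga.540.1.S1_at) were 537, 507.5 and 379.5 at E5, 4353, 4860 and 2882 at E7, 4385, 5245 and 4925 at E10, and 7953, 6594 and 6968 at E14. E5 lay far below E7 with no overlap, E7 and E10 overlapped, and the E14 arrays were all above those of E10. MGP rose 8.38-fold from E5 to E7 (log2 change 3.07, SE 0.22, limma adjusted p = 4.58e-06). It changed by 0.30 from E7 to E10 (limma adjusted p = 0.451) and by 0.56 from E10 to E14 (adjusted p = 0.173), neither of them called. The total from E5 to E14 was 3.93 on the log2 scale, or 15.2-fold (SE 0.22, limma adjusted p = 7.08e-08).

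Successive steps of MGP were compared directly, as total log2 changes over periods of unequal length and not as rates per day. Its step from E7 to E10 was smaller than that from E5 to E7 (log2 difference -2.77, SE 0.38, limma adjusted p = 0.00876), a test chosen after the data were seen, and it missed the threshold when the spread was moderated without an intensity trend (adjusted p = 0.0524). Of the 14 member probe sets only MGP passed this test, against 0.304% of all tested probe sets. For the later pair of steps (E10 to E14 against E7 to E10) 0 of 14 passed with limma, against 0.427% of all tested probe sets. Under an unadjusted limma p of 0.05 were 3 members, but the share of all tested probe sets under it was not counted, so no reading is given. The nearest was CYR61, with a difference of -1.75 (SE 0.39, limma adjusted p = 0.0666), which passed with 16 added to each signal (0.0457) and without E14 replicate 2 (0.0412). In the other refits it did not pass, with a limma adjusted p as high as 0.273 (without E10 replicate 1).

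Summed signals of 6 of the 8 marker lists were higher at E7 than at E5 with no overlap, over the period in which MGP and NOV rose. Of all tested probe sets taken singly, 22.2% did not overlap between E5 and E7, in either direction. No such share was taken for sums, so the count is a description only. The summed endothelial signal was 3246 to 4755 at E5 and 6515 to 8336 at E7, with 2 of 15 genes called from E5 to E7, where 1.01% of all tested probe sets rose, and the summed mural signal was 2554 to 3010 at E5 and 4194 to 7466 at E7, with 2 of 10 called. The called genes were VWF (log2 change 2.22) and SOX17 (1.34) of endothelium and ACTG2 (3.16) and KCNJ8 (1.56) of mural cells, and the smooth muscle actin ACTA2 was not tested. The sums went from 24860 to 27400 at E5 to 31270 to 43690 at E7 for mesenchymal markers (0 of 15 called with limma, 4 at an unadjusted p under 0.05) and from 5792 to 7758 to 8001 to 11750 for epithelial markers (0 of 12 called, 4 unadjusted). For macrophage markers they went from 323 to 493 to 759 to 887 (1 of 9 called, BLB1), and for thrombocyte markers from 531 to 716 to 957 to 1250 (0 of 3 called, 2 unadjusted). Of all tested probe sets, 17.3% had an unadjusted p under 0.05 in this period. The part of these cell types in the MGP and NOV changes was not tested. Without E7 replicate 3, the array that stood apart, the E5 to E7 rises of MGP (log2 change 3.29, limma adjusted p = 3.37e-06) and NOV (2.44, adjusted p = 0.0101) were as large.

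SPP1, a phosphoprotein of bone that is also made by macrophages and epithelia and signals through integrins and CD44, was not called in any comparison. Its signals (Gga.3551.1.S1_at) were 128, 108 and 110 at E5, 75.8, 92.3 and 137 at E7, 85.8, 51.2 and 12.3 at E10, and 280, 125 and 54.6 at E14. The E10 and E14 arrays were the most scattered, and the stages overlapped in each of the 4 comparisons. The largest difference was 1.71 on the log2 scale from E10 to E14 (SE 0.62, limma adjusted p = 0.149), and E14 differed from E5 by 0.11, with a 95% interval from -1.22 to 1.44 that does not exclude a change of 2-fold either way. Macrophage markers rose over the same period, 5 of 9 from E10 to E14 (1.22% of all tested probe sets rose), led by C1QB (log2 change 3.60), BLB1 (3.11), CD74 (2.26) and C1QC (2.23). From E5 to E14, where 14.8% of all tested probe sets rose, 8 of 9 macrophage markers did. Their summed signal was 4219, 5113 and 6052 on the E14 arrays, the reverse of the order of SPP1 on these arrays. Epithelial markers, whose cells can also make SPP1, rose in 5 of 12 cases from E10 to E14 (KRT75 by 2.88, COL17A1 by 2.54 and KRT14 by 1.45 among them) and GRHL3 fell, with sums of 12720 to 13820 at E10 and 23010 to 26050 at E14. The part of these cells in the SPP1 values was not tested.

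Of the bone and cartilage markers set beside SPP1, MGP and SPARC, 4 were tested. From E5 to E14 RUNX2 rose from a mean of 10.21 to 97.0 and BGLAP from 22.45 to 72.9. COL2A1 fell from 827.8 to 276. Of all tested probe sets, 14.8% rose and 13.6% fell from E5 to E14. The E5 means of RUNX2 and BGLAP were under the signal limit of 34.7, so the size of their rises depends on a level close to background. ALPL, IBSP, DMP1, ACAN, COL10A1 and MATN1 were on the array and were not tested, having too low a signal in at least 1 array of every stage.

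SPARC, a collagen-binding glycoprotein of basement membranes and remodelling tissue, was measured by 3 probe sets, of which 2 rose from E5 to E14, where 14.8% of all tested probe sets rose. Signals of the probe set with the highest mean, Gga.19099.2.S1_a_at, were 1453, 1794 and 2099 at E5, 3284, 2428 and 2341 at E7, 3360, 3468 and 3732 at E10, and 4565, 2599 and 2668 at E14. Those of Gga.17661.1.S1_s_at were 807, 1028 and 1138, then 2221, 1295 and 1339, then 2484, 2000 and 2116, and at E14 3250, 1738 and 3502. In both probe sets E5 was below every later array, and the E14 arrays spanned the E10 range.

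The first of these changed by 0.84 on the log2 scale from E5 to E14 (SE 0.23, limma adjusted p = 0.011), short of 2-fold, whereas Gga.17661.1.S1_s_at rose by 1.46 (SE 0.27, adjusted p = 0.00085). The other, Gga.2613.1.S1_s_at, with signals of 1223 to 1965 at E5 and 2804 to 4460 at E14, rose by 1.02 (SE 0.31, limma adjusted p = 0.0174). Leaving out E5 replicate 1 (log2 change 0.80, limma adjusted p = 0.0882) or E14 replicate 1 (0.82, adjusted p = 0.0789) ended that call, and the change was below 2-fold after quantile normalization (0.95) or with equal medians (0.94). No SPARC probe set was called in a single period. Over the 12 arrays the 3 probe sets correlated with each other at 0.823 to 0.892. Collagens and other mesenchymal markers summed to 24860 to 27400 at E5 and 32900 to 49170 at E14. Where 14.8% of all tested probe sets rose and 13.6% fell, 1 of these 15 markers was called up (COL3A1) and 1 down (PRRX1). Their part in the SPARC change was not tested.

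**Figure D3:**
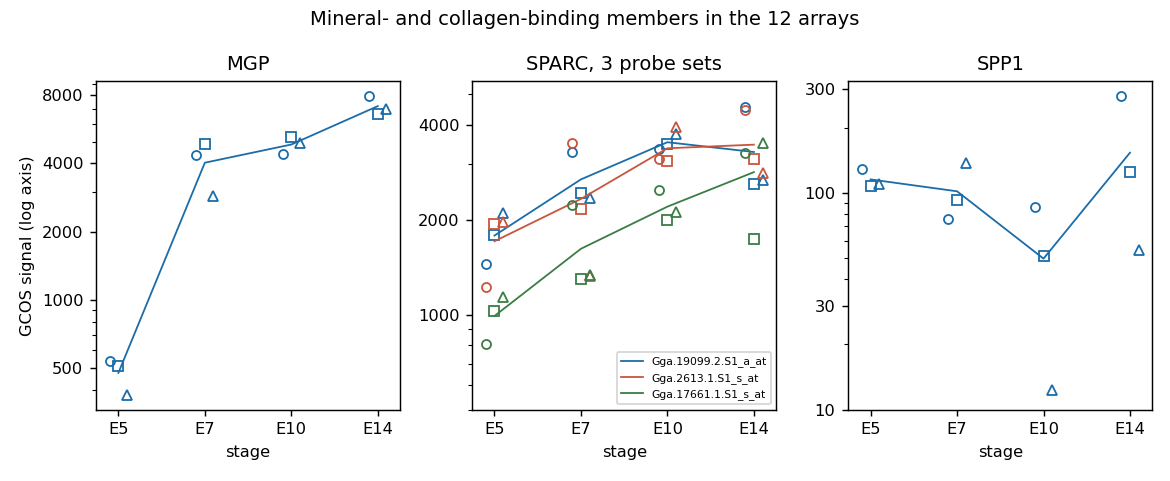
GCOS signal (log axis) of MGP, the 3 SPARC probe sets and SPP1 by stage, with a circle, square and triangle for replicates 1, 2 and 3 and lines through the stage means. MGP went from 379.5 to 537 at E5 to 2882 or higher at all later stages, SPARC changed less, and SPP1 was between 12.3 and 280 with overlapping stages.

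The thrombospondins THBS1 and THBS2 are matrix glycoproteins that bind CD36 and CD47 and restrain endothelial growth. THBS2 was dim at E5 and rose from E5 to E14 in both of its probe sets. GgaAffx.21822.1.S1_s_at gave 22.9, 38.6 and 18.7 at E5, 27.5, 10.5 and 57.8 at E7, 86.4, 66.7 and 89.5 at E10, and 167, 102 and 100.8 at E14. Gga.797.1.S1_at gave 30.3, 34.2 and 28.2, then 43.4, 31.5 and 23.2, then 46.9, 45.0 and 64.4, and at E14 140, 85.7 and 66.1. In both probe sets E10 lay above E7 and E14 above E10, while E5 and E7 overlapped.

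Over the whole course these THBS2 probe sets rose 4.70-fold (log2 change 2.23, SE 0.52, limma adjusted p = 0.0037) and 3.01-fold (1.59, SE 0.39, adjusted p = 0.00486). From E7 to E10 the former changed by 1.65 (SE 0.52) and was not called (limma adjusted p = 0.0868), but it was called without E7 replicate 3 (2.24, adjusted p = 0.0159), after quantile normalization (0.0477) and with array weights (0.00781). Without E7 replicate 2, its lowest array, the change was 1.01 (limma adjusted p = 0.219). Both probe sets were over the signal limit of 34.7 at E10 and E14 only, so that their E5 level is close to the background of the array and the fold depends on it.

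THBS1 was low throughout. The 3 probe sets (Gga.10300.1.S1_s_at, Gga.3448.1.S1_at and GgaAffx.22987.1.S1_at) had all arrays over the limit of 34.7 at E5 only, and their signals ran from 40.2 to 87.8 at E5 and from 11.4 to 84.0 on the later arrays. For Gga.10300.1.S1_s_at every E7 array (15.3 to 30.3) was below every E5 array (53.4 to 87.8), a log2 difference of -1.55 (SE 0.54, limma adjusted p = 0.176) that was not called. GgaAffx.22987.1.S1_at also had every E7 array (15.3 to 40.0) below every E5 array (44.9 to 55.2), with a difference of -0.95 (SE 0.48, limma adjusted p = 0.326). For Gga.3448.1.S1_at these stages overlapped (-0.325). No THBS1 probe set was called in any comparison with limma, although 1 reached an unadjusted p below 0.05 (E5 against E7), and their correlations with each other over the 12 arrays were only -0.0612 to 0.553.

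POSTN, a collagen and integrin binding protein of connective tissue, rose from E5 to E14 with a wide spread. Its signals (Gga.5154.1.S1_at) were 7.33, 19.3 and 21.2 at E5, 38.6, 31.6 and 10.6 at E7, 52.3, 31.5 and 150 at E10, and 185, 59.5 and 720 at E14. E14 overlapped with E10 but not with E5 or E7, and the E14 arrays differed among themselves more than those of any earlier stage in signal. The log2 change from E5 to E14 was 3.79 (SE 0.81, 95% interval 2.06 to 5.53, limma adjusted p = 0.00218), with all 3 arrays over the signal limit at E14 only. It was 2.86 without E14 replicate 3 (limma adjusted p = 0.0132), 4.66 without E14 replicate 2 (0.00053) and 2.84 with 16 added to each signal (0.00204). A second POSTN probe set (GgaAffx.20104.1.S1_s_at) gave 10.3 to 103 and was not tested. E14 replicate 2, the E14 array with low HINTW signal, had the lowest CTGF and POSTN signals of its stage, the lowest mesenchymal sum (32900 against 43930 and 49170) and the lowest mural sum (4778 against 6331 and 11730). This array also had the lowest ratio of 3′ to 5′ actin signal of its stage (2.21 against 3.43 and 2.86). Whether these are linked was not tested.

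TNC, which modulates adhesion of cells to fibronectin, was not measurable. Its 4 probe sets (Gga.3818.1.S1_at, Gga.684.1.S1_at, Gga.404.1.S1_at and Gga.404.1.A1_at) gave 0.322 to 50.7, and none had all 3 arrays of any stage over the limit. The highest values were on E14 replicate 3 (50.7) and E7 replicate 3 (38.1), both for Gga.3818.1.S1_at, whose E10 signals were 2.37 to 3.50. For Gga.684.1.S1_at the E14 signals (13.5 to 27.3) were above those of all earlier arrays, but they were under the limit and not tested. TNC expression below the sensitivity of these probe sets cannot be told apart from none.

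**Figure D4:**
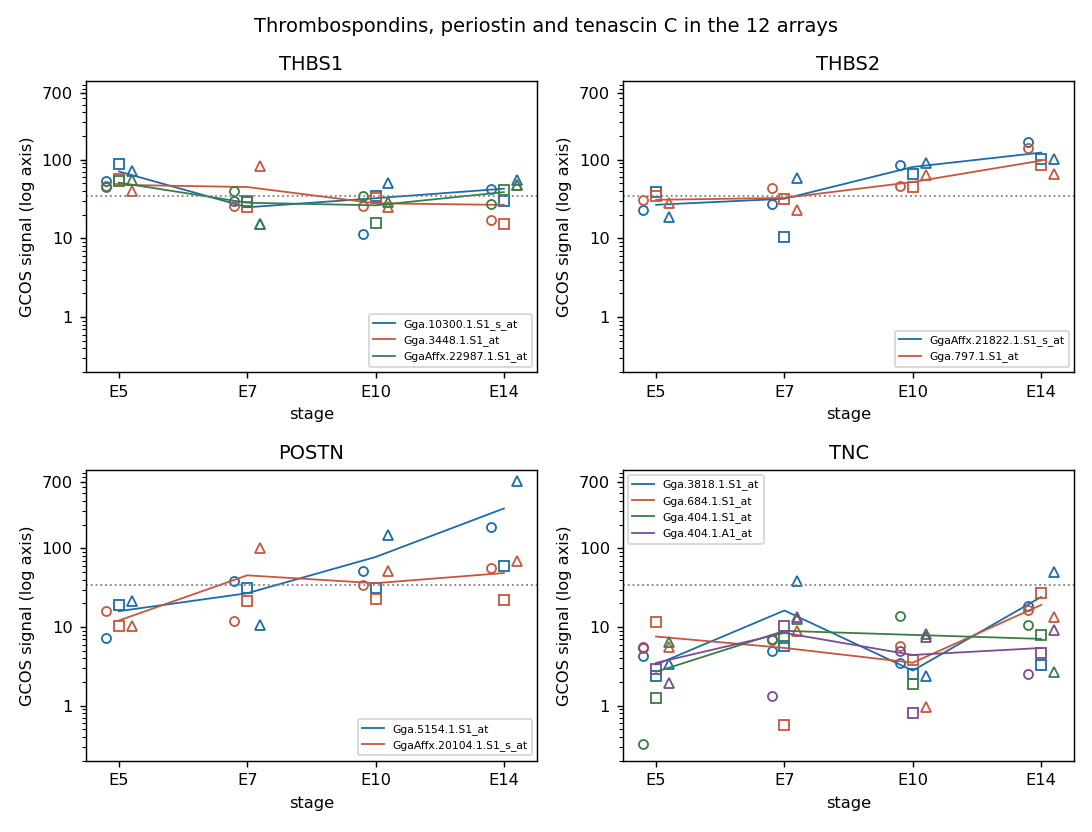
GCOS signal (log axis) of all THBS1, THBS2, POSTN and TNC probe sets by stage, with a circle, square and triangle for replicates 1, 2 and 3, a line per probe set through the stage means and a dotted line at the signal limit of 34.7. THBS2 and 1 POSTN probe set were over the limit on all 3 E14 arrays, THBS1 on all 3 E5 arrays, and TNC at no stage.

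Counted over the 14 tested probe sets, 2 rose from E5 to E7 (NOV and MGP, 14.3%), where 1.01% of all tested probe sets rose. From E7 to E10 1 rose (NOV, 7.14%), where 2.73% of all rose, and from E10 to E14 1 fell (CYR61, 7.14%), where 1.47% of all fell. Over the whole course, E5 to E14, 8 rose, where 14.8% of all rose. These 8 are CTGF, NOV, MGP, 2 of SPARC, both of THBS2 and POSTN. Of them, 3 passed the filter through E10 or E14 alone, and NOV passed it at every stage but E5. Of all 20 probe sets with no filter on signal, 8 rose from E5 to E14, where 6.98% of the 38439 rose. No member fell from E5 to E14 by limma, at an unadjusted p under 0.05 either. The members were chosen with earlier results of these data known. The study itself lists NOV and MGP as upregulated from E5 to E7 and CYR61 as downregulated from E10 to E14. The shares of members called are therefore descriptions only.

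The stages did not overlap for 7 of 14 member probe sets between E5 and E7 (22.2% of all tested), for 6 between E7 and E10 (26.2%), for 5 between E10 and E14 (29.2%) and for 9 between E5 and E14 (54.3%). Their median log2 change from E5 to E14 was 1.24, beside 0.03 over all tested probe sets. The medians of the successive periods were 0.29, 0.53 and 0.57, beside -0.04, 0.06 and -0.05. The THBS1 probe sets passed the filter through E5 alone, those of THBS2 through E10 and E14, and that of POSTN through E14 alone. That of NOV passed it through E7, E10 and E14. For these, the filter favoured a difference between E5 and later stages. SPARC, THBS1 and THBS2 are counted more than once, so the counts and medians are descriptions only.

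**Figure D5:**
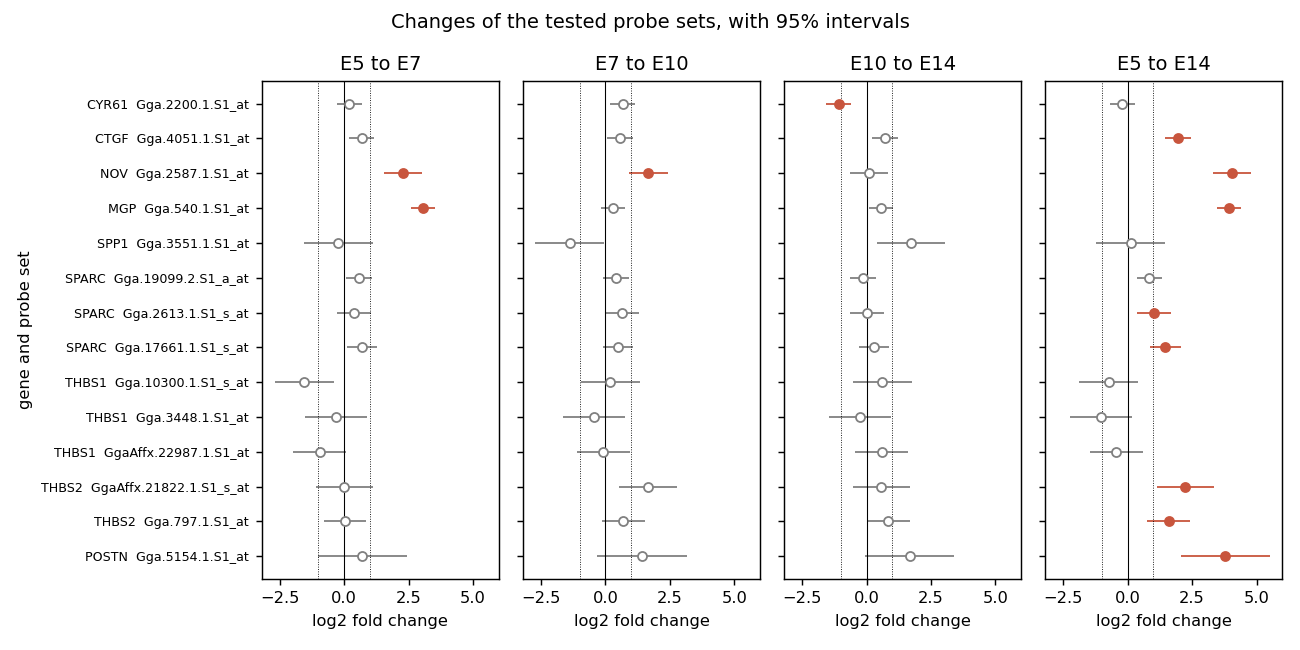
Log2 fold change (later minus earlier stage) of the 14 tested probe sets in the 4 comparisons, with 95% intervals from limma. Filled points are called, dotted lines mark 2-fold, and the called changes were NOV and MGP from E5 to E7, NOV from E7 to E10, CYR61 from E10 to E14 in the downward direction, and 8 probe sets from E5 to E14.

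The genes whose log2 signals followed each member most closely were sought among 9030 other named genes, and high values are to be expected of the best of so many over 12 arrays that share 4 stages. For CYR61 they were WIF1, a secreted Wnt inhibitor (r = 0.912), LAMA1, a laminin chain (0.869), and TMEM38A, an intracellular cation channel (0.845). WIF1 had stage means of 92.7, 233, 578 and 87.4, with the same peak at E10. For CTGF they were the ubiquitin ligase ARIH1 (r = 0.984), the transcription factor KLF6 (0.975) and the tropomyosin TPM3 (0.97). After the stage means were removed, CYR61 correlated at 0.746 with WIF1, 0.15 with LAMA1 and 0.443 with TMEM38A. CTGF then correlated at 0.887 with ARIH1, 0.765 with KLF6 and 0.809 with TPM3.

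For NOV the closest were RELN, a secreted matrix glycoprotein (r = 0.971), the arginine synthesis enzyme ASS1 (0.969) and the protease inhibitor SPINT1 (0.963). For MGP they were the creatine transporter SLC6A8 (r = 0.98), EMP1 (0.975) and VWF, made by endothelium and thrombocytes (0.969). After the stage means were removed, NOV correlated at 0.457 with RELN, 0.562 with ASS1 and 0.54 with SPINT1. MGP then correlated at 0.354 with SLC6A8, 0.821 with EMP1 and -0.294 with VWF, so that its likeness to VWF lies between stages. SPARC was closest to the collagen-degrading protease CTSK (r = 0.948), DYRK3 (0.92) and the endothelial cadherin CDH5 (0.916), which stayed at 0.944, 0.789 and 0.875 within stages. THBS2 was closest to ATP6V0D1 (r = 0.974), RFX5 (0.96) and the vessel wall collagen COL8A1 (0.959), and POSTN to CLASP2 (0.916), USP25 (0.913) and CD244 (0.9). For SPP1 and THBS1, whose stages overlapped or whose signals were low, the best values were 0.872 (KIAA1958) and 0.883 (SSTR1).

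A list of other matricellular genes was counted beside the members. Of 15 measured, 0 were called from E5 to E7 with limma (5, or 33.3%, at an unadjusted p under 0.05, beside 17.3% of all tested), and 1 fell from E7 to E10 (0.669% of all tested probe sets fell). This was VTN, vitronectin, a plasma and matrix adhesion protein, with a log2 change of -2.61 (limma adjusted p = 0.0316). Between E5 and E14 COMP (1.55) and TGFBI (2.39), both collagen-binding proteins, rose, where 14.8% of all tested probe sets rose. The spondins SPON1 (-1.52) and SPON2 (-3.61) and VTN (-2.04) fell, where 13.6% of all tested probe sets fell. The means of COMP at E5 (28.9), SPON2 at E14 (16.3) and VTN at E10 (19.4) were under the signal limit of 34.7. The size of the called changes to or from these stages therefore depends on a level close to background.

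Receptors for these proteins are chiefly integrins. Of 15 measured receptors, ITGA1 (log2 change 1.85) and ITGA6 (1.30) rose from E5 to E7, where 1.01% of all tested probe sets rose, and ITGA3 (1.66) and the scavenger receptor STAB1 (1.92), which takes up SPARC, rose from E7 to E10, where 2.73% rose. None was called from E10 to E14 with limma (2 at an unadjusted p under 0.05, beside 19.6% of all tested). Between E5 and E14 these 4 rose, ITGA6, a laminin receptor subunit to which CYR61 also binds, by 3.23, and ITGA4 fell by 1.65 on the log2 scale, where 14.8% of all tested probe sets rose and 13.6% fell.

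CYR61 and CTGF are transcriptional targets of YAP with TEAD and also immediate-early genes, which are induced without new protein synthesis. Of 19 measured YAP and TEAD targets and partners, 0 were called from E5 to E7 with limma (7 at an unadjusted p under 0.05, beside 17.3% of all tested), and CRIM1 (log2 change 1.28) and the tissue factor gene F3 (2.00) rose from E7 to E10, where 2.73% of all rose. From E10 to E14 0 of the 19 were called with limma (3 at an unadjusted p under 0.05), where 1.22% of all tested probe sets rose, 1.47% fell and 19.6% had an unadjusted p under 0.05. Over the whole course 4 rose, among them F3 (2.90), CRIM1 (1.64) and AXL (1.44), and 3 fell, among them YAP1 itself (-1.43), counts near the 14.8% and 13.6% of all tested probe sets that rose and fell.

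Of 14 measured immediate-early genes, KLF2 (log2 change 1.90) and SGK1 (1.27) rose from E5 to E7, where 1.01% of all tested probe sets rose. At an unadjusted limma p under 0.05, 5 were up and 5 down in this period, beside 17.3% of all tested. DUSP5 (1.84), EGR1 (1.78), BTG2 (1.68), NFKBIA (1.37) and MYC rose from E7 to E10, where 2.73% of all rose. Before this, EGR1 had a mean of 863.7 at E5 and 254.1 at E7, and MYC 298.8 and 176.1, changes that were not called. Neither gene was called from E5 to E14. From E10 to E14 0 of 14 were called with limma (4 at an unadjusted p under 0.05), where 1.22% of all rose, 1.47% fell and 19.6% had an unadjusted p under 0.05. Over the whole course 8 rose, among them NFKBIA (2.64), KLF2 (2.56) and BTG2 (2.33), and ATF3 fell by 2.36 on the log2 scale, where 14.8% of all tested probe sets rose and 13.6% fell. The E14 mean of ATF3 was 29.9 ± 41.5 (SD, n = 3), under the signal limit of 34.7. The size of its fall therefore depends on a level close to background. Both lists hold genes whose RNA many cell types make, and the share of each cell type in these values was not tested.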

How the data were processed

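The authors hybridized CAM RNA of 12 embryos to Affymetrix chicken GeneChips and deposited signal intensity values made with GCOS 1.2 (version from the submitters' processing notes), each array scaled to a trimmed mean of 100. Intensities were analysed as deposited, after log2, with limma 3.58.1 in R 4.3.3, in 1 fit of the 12 arrays with stage as the only factor and an intensity trend. P-values were adjusted by Benjamini-Hochberg over the tested probe sets, and calls needed an adjusted p under 0.05 and more than 2-fold. The study's filter on detection calls and its SAM test were not used here. As many probe sets as that filter kept (46.2% of those on the array) were tested instead, ranked by their lowest signal within the best stage (limit 34.7). Code was tested on simulated data. The number of arrays limits precision.

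Members and lists were chosen with earlier results of these data known. All member probe sets are named. Of other lists, called genes could be named (and untested markers, for what a list misses), at most 4 per list and comparison, largest changes first (not for every marker list and comparison), with MYC, SPON1 and ITGA4, each the fifth, added after their values were seen. The 3 genes most correlated with each tested member are named, but only the first for SPP1 and THBS1. Probe sets were named from the platform annotation (27168 with 1 symbol, 177 with several, 11094 with none), checked by gene ID against RefSeq (10 of 10 members). Probe sets ending in _s_at can match more than 1 transcript. Replicate numbers did not pair the arrays. Figures were drawn with matplotlib 3.10.9.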

Additional observations from a re-analysis of the deposited data

How the results depend on the processing

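Each called member probe set, and THBS2 from E7 to E10, was refitted under up to 23 alternatives: no filter, a stricter filter, an offset, a floor, quantile normalization, equal medians, no intensity trend, only the arrays compared, HINTW as covariate, array weights, the replicate block, and each of the 12 arrays left out in turn. THBS2 (Gga.797.1.S1_at) and POSTN, which the stricter filter left out, had 22. No call changed direction in these fits. The calls of NOV and MGP from E5 to E7, and of CTGF, NOV, MGP, 1 SPARC probe set (Gga.17661.1.S1_s_at) and 1 THBS2 probe set (GgaAffx.21822.1.S1_s_at) from E5 to E14, were made in all 23. Those of THBS2 (Gga.797.1.S1_at) and POSTN from E5 to E14 were made in all 22. From E7 to E10 the number of member probe sets called was 2 with quantile normalization, 2 with array weights, and 0 to 2 with arrays left out. From E10 to E14 it was 0 with only the 6 arrays compared and 0 to 1 with arrays left out. The cause was not tested. Replicates with the same number did not deviate together (correlations -0.141 to 0.072), and with the replicate block 2, 1, 1 and 8 member probe sets were called in the 4 comparisons, as without it. From E5 to E14 the number ranged from 6 with the stricter filter to 9 with no fold threshold, which was applied to the counts only. The 3 arrays per stage, and signals near the limit for THBS1, THBS2, POSTN and TNC and for NOV at E5, bound what these data can resolve.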
